A study of Mus musculus with 2 samples.

Results

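The 9 genes described here are Cd40 and the ligands Cd80, Cd86, Icosl, Cd274, Pdcd1lg2, Tnfsf4, Tnfsf9 and Tnfsf18, through which antigen-presenting cells give or withhold the second signal to a T cell. They were chosen by gene symbol, with earlier results of these data known, and all 9 are among the 20938 genes of both tables. RNA-seq was performed on 1 library of splenic Treg cells from littermate controls and 1 library from Foxp3-Mettl14f/+ cKO mice, both isolated on day 7 after transplantation. The recipients had a C57BL/6J background, were made diabetic with streptozotocin, received islets from BALB/c donors under the kidney capsule, and for RNA-seq were not treated with the anti-CD45RB and anti-CD40L antibodies. In the cKO mice, Cre under the control of Foxp3 recombined a single floxed allele of Mettl14, so the other allele stayed intact in Treg cells and Mettl14 was not targeted in cells that never expressed Foxp3. The labels call the control wild type and the cKO library a Foxp3 knockdown, whereas the methods speak of littermate controls and Foxp3-Mettl14f/+ cKO mice, and the methods' names are used here. The methods give the littermate controls as Mettl14f/f, while also identifying them by the wild-type band in genotyping, and do not say whether they carried Cre. The age of the mice and the number pooled per library were not given in the sources used here. Treg cells were enriched on magnetic columns by removal of cells other than CD4+ T cells and then selection of CD25+ cells. How transcripts of presenting cells reached the libraries was not tested.

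T cell activation requires recognition of peptide on MHC together with costimulation. CD80 and CD86 are B7 proteins that bind CD28 to activate T cells and bind CTLA-4, which Treg cells carry in abundance, to restrain them. CD40 is a receptor of the TNF receptor family on B cells, macrophages and dendritic cells, and its engagement by CD40 ligand on T cells raises CD80 and CD86. ICOS ligand, encoded by Icosl, is a B7 protein that binds ICOS, while PD-L1 (Cd274) and PD-L2 (Pdcd1lg2) bind the inhibitory receptor PD-1. OX40 ligand (Tnfsf4), 4-1BB ligand (Tnfsf9) and GITR ligand (Tnfsf18) are TNF family ligands whose receptors are prominent on Treg cells. Activated T cells can carry PD-L1 and some of the other ligands as well, so a transcript in a bulk library does not name its cell.

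The sequences just before the start sites of 4 B7 genes are shown because these genes were higher in the cKO library together and differed in the size of the change. RefSeq promoters on GRCm38.p6 were matched for 5 of the 9 genes (Cd80, Icosl, Cd274, Pdcd1lg2 and Tnfsf18), and Cd40, Cd86, Tnfsf4 and Tnfsf9 had no entry. Each sequence below runs 5′ to 3′ on the plus strand over the 250 bases before the RefSeq start, and ends earlier for Icosl, where the annotated first exon begins within the window. Capitals mark matches to an NF-kappaB pattern (GGG and CC around 5 bases of any kind) and to AP-1 TGANTCA on either strand, and in Cd80 an NF-kappaB match is followed directly by the AP-1 match. The NF-kappaB match of Icosl at the end of the printed sequence continues into the exon that is left out.
Cd80, chr16:38458683-38458932: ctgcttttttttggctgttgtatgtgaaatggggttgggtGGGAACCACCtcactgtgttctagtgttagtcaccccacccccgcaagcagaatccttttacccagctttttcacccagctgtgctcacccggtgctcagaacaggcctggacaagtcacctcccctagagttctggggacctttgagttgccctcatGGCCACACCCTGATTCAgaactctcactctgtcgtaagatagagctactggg
Icosl, chr10:78069118-78069301: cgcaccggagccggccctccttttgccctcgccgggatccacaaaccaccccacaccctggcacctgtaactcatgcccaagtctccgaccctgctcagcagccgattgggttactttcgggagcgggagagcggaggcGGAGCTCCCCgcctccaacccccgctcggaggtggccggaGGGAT
Cd274, chr19:29367188-29367437: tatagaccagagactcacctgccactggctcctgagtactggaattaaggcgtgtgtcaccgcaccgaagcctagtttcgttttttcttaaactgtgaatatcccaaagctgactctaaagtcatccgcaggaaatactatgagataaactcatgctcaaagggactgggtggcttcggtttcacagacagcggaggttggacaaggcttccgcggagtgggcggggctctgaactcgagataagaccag
Pdcd1lg2, chr19:29410669-29410918: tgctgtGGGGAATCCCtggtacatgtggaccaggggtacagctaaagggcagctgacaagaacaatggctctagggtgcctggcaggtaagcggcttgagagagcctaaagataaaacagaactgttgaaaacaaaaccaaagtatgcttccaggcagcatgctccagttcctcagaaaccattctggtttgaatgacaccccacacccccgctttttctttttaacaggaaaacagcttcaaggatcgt
The NF-kappaB letters matched in 3 of the 5 windows (Cd80, Icosl and Pdcd1lg2) and in 45.8% of 32851 promoters of the same length. The AP-1 letters matched in Cd80, against 6.75% of promoters, and the PU.1 letters GAGGAAG matched in Tnfsf18, against 10.6%. The IRF pattern (GAAA repeated after 2 bases of any kind) and the STAT letters TTCNNNGAA, found in 2.98% and 7.02% of promoters, had no match in these 5 windows. The Cd80 window lies inside the annotated gene, since another transcript of Cd80 starts upstream at 38455561. A match describes the letters alone.

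The deposited values were read counts divided by a factor particular to each library, since 100% of them were whole multiples of the smallest value above 0 within 0.001. A read was worth 0.967 for the control and 1.14 for the cKO, and the recovered reads summed to 20239325 and 18327535. Levels below are the deposited values unless a sentence says per length, and changes are log2 ratios, cKO over control, after a pseudocount of 1 was added to both. The change of each of the 9 genes, and of some others, is followed by an exact 95% interval for the ratio of reads. This interval holds counting error alone, since without molecular identifiers several reads may come from 1 molecule. Changes printed without an interval carry counting error too. With a single library per genotype, no difference below could be set against a spread between mice, and no test of the genotype was possible. Mettl14 had 948 reads for the control and 652 for the cKO, a log2 change of -0.31 (-0.45 to -0.16). Foxp3 had 1547 and 1361 reads and stood at a change of 0.05 (-0.06 to 0.15). The T cell core markers and the Treg markers found in the tables had reads in both libraries, and so did all 17 B cell, 12 dendritic cell and 13 granulocyte markers, so the libraries labelled Treg also held transcripts of other cells.

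Among the 9 genes, Cd40 and the 5 B7 genes were higher in the cKO library and the 3 TNF family ligands had lower levels there. The intervals of Tnfsf4 and Tnfsf9 include 0. At a threshold of 1.5-fold, 6 of 9 genes were higher, against 17.2% of the 16659 genes whose mean level reached 1. In bulk RNA, more cells of a type and more RNA per cell cannot be told apart, and this holds for every change given here. At least 1.5-fold lower were 2 of 9 genes, Tnfsf18 and Tnfsf4, when 24.2% of all genes were, so this share was close to the background. The median log2 change of the 9 genes was 0.95, beside -0.042 over all genes. Setting the summed T cell core genes equal between the libraries moved the median of all genes by 0.31, and the share of higher genes among all changed genes went from 41.6% to 60.1%. With this scaling the 6 genes were still higher, and 1 gene, Tnfsf18, was lower. When recovered reads were put to an exact binomial test (two-sided, Benjamini-Hochberg adjusted), which compares these libraries and not the genotypes, the test called 14.2% of 14863 genes higher and 18.1% lower. It called the same 6 genes higher and Tnfsf18 lower. When a coefficient of variation of 0.4 between animals was assumed in edgeR's exact test, 1.54% of genes were called higher and 3.83% lower, and Cd40 was the only one of the 9 genes called.

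**Figure D1:**
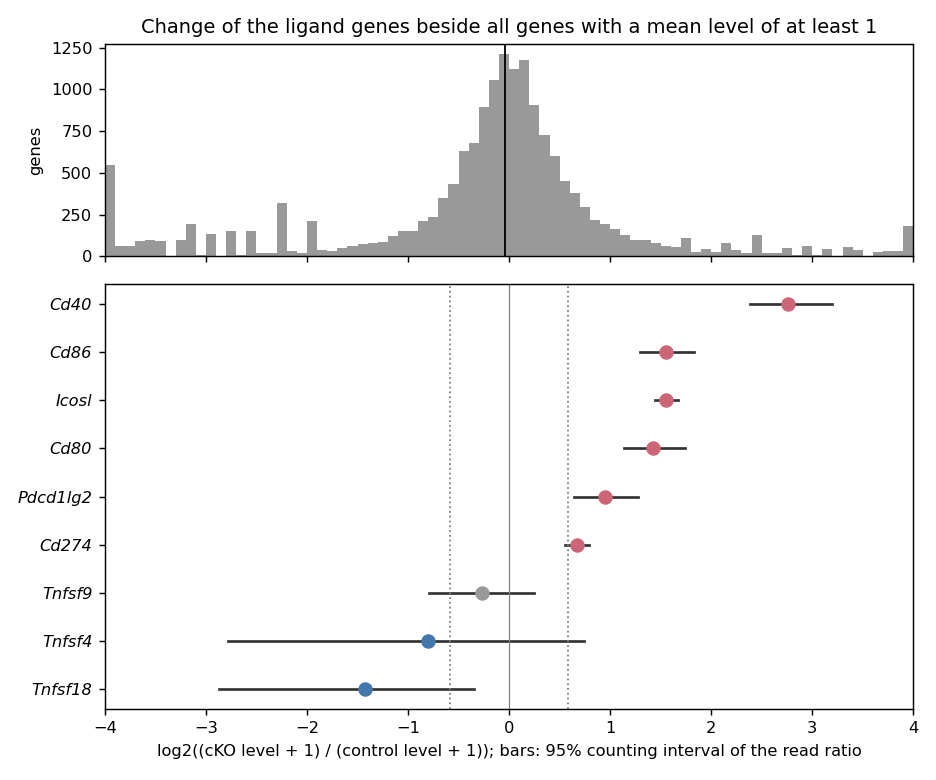
Lower panel, log2 change of each of the 9 genes (points, red at least 1.5-fold higher, blue at least 1.5-fold lower, grey neither) with 95% counting intervals (bars) and the 1.5-fold limits (dotted lines). Upper panel, the number of all genes at each log2 change, with values beyond 4 in either direction placed in the end bins and the median of -0.042 as a line; Cd40 at 2.76 lies at percentile 97.1 of all genes.

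Cd40 had the largest change of the 9 genes. It spans 165055627 to 165072948 of chromosome 2 (GRCm38, plus strand) and encodes the receptor through which T cell help licenses presenting cells. Its level was 59.0 for the control and 405 for the cKO, from 61 and 356 reads. The level was 6.76-fold higher in the cKO library, a log2 change of 2.76 (2.38 to 3.19). Over the alternatives with another pseudocount, filter or scaling the change ranged from 2.67 to 3.07. Cd40lg, the ligand of CD40 on T cells, had 706 and 449 reads, a log2 change of -0.42 (-0.59 to -0.25). Per kilobase of exon, the control library held 31.5 times as much Cd40lg as Cd40, and the cKO library 3.44 times as much. The ratio of Cd40 to Cd40lg was therefore 9.18-fold higher in the cKO library (6.78 to 12.5), and this ratio within a library does not depend on the scaling.

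The CD28 and CTLA-4 ligands were higher by similar factors. Cd80, on chromosome 16 from 38455561 to 38496335, had a level of 129 for the control and 348 for the cKO, from 133 and 306 reads. Its log2 change was 1.43 (1.14 to 1.74), or 2.69-fold. Cd86, on the same chromosome from 36603869 to 36666081 on the minus strand, had levels of 163 and 482, from 169 and 424 reads. It was 2.94-fold higher, a log2 change of 1.55 (1.30 to 1.83), and the intervals of Cd80 and Cd86 overlap. Cd80 made up 44.0% of the reads of both genes (95% exact interval 38.4 to 49.8) for the control and 41.9% for the cKO (38.3 to 45.6). These intervals overlap, so a shift in the balance between the ligands was not detectable at this depth.

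The receptors of these ligands stood closer to equal in the libraries. Cd28, the activating receptor, had 3077 and 2204 reads and a log2 change of -0.25 (-0.33 to -0.17). Ctla4, its inhibitory counterpart and a defining gene of Treg cell function, had 615 and 692 reads and a change of 0.40 (0.24 to 0.56). Neither passed 1.5-fold on the deposited scale, but Ctla4 did when the T cell core genes were equalised. Cd80 and Cd86 together stood at 0.107 of Cd28 and Ctla4 together per kilobase in the control library and at 0.302 in the cKO library.

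Icosl was the most abundant of the 6 higher genes by reads in the cKO library. It lies on chromosome 10 from 78069302 to 78083913 on the plus strand and encodes the only known ligand of ICOS, a receptor of activated T cells and Treg cells. Its level was 840 for the control and 2468 for the cKO, from 868 and 2170 reads. The log2 change was 1.55 (1.44 to 1.67), or 2.94-fold. Icos had 991 and 943 reads and stood at a change of 0.16 (0.03 to 0.29), so Icosl per kilobase was 0.65 of Icos in the control library and 1.71 times Icos in the cKO library. The position of Icosl below Icos in the control library rests on the length used, since with the longest transcript of each gene Icosl stood at an RPKM (reads scaled to length and library total) of 15.2 and Icos at 15.1 there. The sum of the PD-1 ligands was above their receptor gene Pdcd1 in both libraries. Pdcd1lg2 alone was below Pdcd1 in the control library, at an RPKM of 3.38 against 9.16, and above it in the cKO library, at 6.15 against 4.10. Cd40, the CD28 ligands and the TNF family ligands were below their partners in both libraries.

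The PD-1 ligands were higher by less. Cd274, on chromosome 19 from 29367455 to 29388095 on the plus strand, had a level of 964 for the control and 1534 for the cKO, from 997 and 1349 reads. Its log2 change was 0.67 (0.55 to 0.79), or 1.59-fold, and it was 0.579, under the 1.5-fold limit, when the libraries were scaled by their total reads. Its exons share 511 bases with an antisense gene that the tables do not list, and whether reads were counted by strand was not given in the sources used here. Pdcd1lg2 lies 22823 bases after Cd274 on the same strand, from 29410919 to 29471161. It had levels of 130 and 251, from 134 and 221 reads, and was 1.93-fold higher, a log2 change of 0.95 (0.64 to 1.28).

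Cd274 held 88.2% of the reads of both PD-1 ligands (86.1 to 90.0) for the control and 85.9% for the cKO (84.1 to 87.6), intervals that overlap. Their shared receptor differed in the other direction. Pdcd1, which encodes PD-1, had 358 and 145 reads and a log2 change of -1.07 (-1.36 to -0.79), the lowest of the 8 receptor genes. Per kilobase the PD-1 ligands together were 1.85 times Pdcd1 in the control library and 6.46 times in the cKO library.

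**Figure D2:**
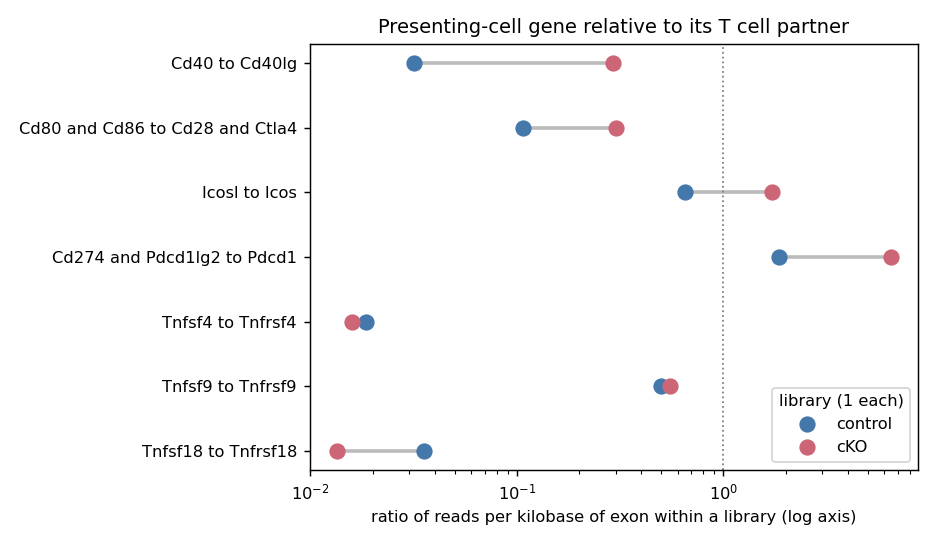
Ratio of each gene or pair of genes of presenting cells to its partner gene or genes on T cells, in reads per kilobase of exon within each library (horizontal log axis; blue, control; red, cKO; dotted line, equal amounts). Cd40 to Cd40lg moved most, while Tnfsf9 to Tnfrsf9 was 0.496 for the control and 0.55 for the cKO.

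The 3 TNF family ligands had few reads, 116 for the control and 68 for the cKO in all, and were 4.68% and 1.39% of the reads of the 9 genes. Tnfsf18 (chromosome 1, 161494655 to 161505290) had 27 and 8 reads and levels of 26.1 and 9.10. The log2 change was -1.43 (-2.87 to -0.34), and the level was 2.69-fold higher in the control library. Tnfsf4, which lies 76244 bases upstream of Tnfsf18, from 161395409 to 161418410, had 11 and 5 reads and a change of -0.80, with an interval from -2.78 to 0.74 that includes 0. Tnfsf9 (chromosome 17, 57105325 to 57107757) had 78 and 55 reads and a change of -0.27 (-0.80 to 0.25) that became 0.043 when the T cell core genes were equalised. The exons of Tnfsf9 share 192 bases with a long noncoding gene on the other strand that the tables do not list. A difference in Tnfsf4 or Tnfsf9 was not detectable at this depth.

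At such low levels many genes were lower in the cKO library. Of the 2155 genes with a mean level from 5 to 20, which takes in Tnfsf4 and Tnfsf18, 55.1% were at least 1.5-fold lower and 27.8% higher. Of the 5796 genes with a mean level from 100 to 1000, where Cd40, Cd80, Cd86 and Pdcd1lg2 lie, 13.5% were higher and 11.7% lower. Of the 3223 genes from 1000 to 3000, where Icosl and Cd274 lie, 10.5% were higher and 6.05% lower. The receptors of the TNF family ligands had more reads than the ligands in both libraries. Tnfrsf4, which encodes OX40, was lower by the threshold, with 438 and 233 reads and a log2 change of -0.68 (-0.91 to -0.44), but not after the T cell core genes were equalised. Tnfrsf9 stood at a change of -0.42 (-0.68 to -0.17) and Tnfrsf18, which encodes GITR, by -0.12 (-0.30 to 0.06).

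Per length, the order of the 9 genes differed between the libraries. In the control library Cd274 was highest at an RPKM of 13.6 (12.8 to 14.5), followed by Icosl at 9.28 (8.68 to 9.92). In the cKO library Icosl was highest at 25.6 (24.6 to 26.7) and Cd274 followed at 20.3 (19.3 to 21.4). With the longest annotated transcript as the length, Icosl was first in both libraries, at 15.2 and 42.1, so the exchange at first place rests on the length used. Cd40, Cd86, Pdcd1lg2 and Tnfsf9 took different places in the libraries with either length. Cd40 was seventh per length in the control library at 0.885 (0.677 to 1.14), where its interval overlapped that of Tnfsf18 at 0.646.

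In the cKO library Cd40 stood at 5.70 (5.13 to 6.33). Its neighbours in that order, Cd86 at 6.32 and Pdcd1lg2 at 6.15, did not differ from it beyond counting error, and Cd80 at 4.51 (4.02 to 5.04) lay below. These relations too rest on the length, since with the longest transcript Cd86 at 9.11 (8.26 to 10.02) lay above Cd40 at 6.51 (5.85 to 7.22), whose interval overlapped that of Cd80 at 5.26 (4.69 to 5.89). In the control library the neighbours Pdcd1lg2 at 3.38, Tnfsf9 at 2.99, Cd86 at 2.28 and Cd80 at 1.77 each overlapped the next, but with the longest transcript Cd86 at 3.29 (2.81 to 3.82) lay above Cd80 at 2.07 (1.73 to 2.45). Tnfsf18 and Tnfsf4 came last in both libraries, at 0.211 and 0.148 in the cKO library.

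**Figure D3:**
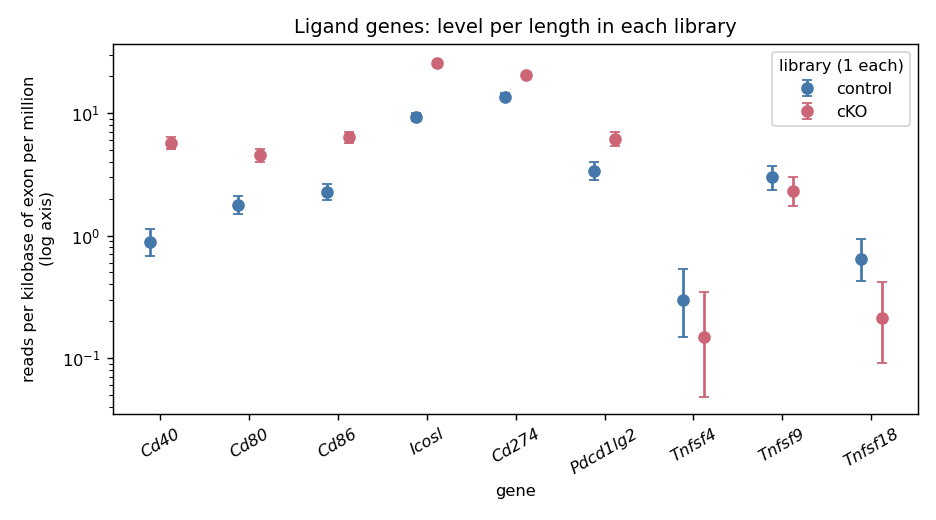
Level of each gene in RPKM, reads scaled to exon length and library total (vertical log axis) in the control library (blue) and the cKO library (red), with exact 95% counting intervals as bars. Cd40 went from 0.885 to 5.70, and Tnfsf4 was lowest in both libraries.

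The other genes of these pathways were compared from lists by role. The 8 partner genes on T cells had a median log2 change of -0.33, with 0 at least 1.5-fold higher, against 17.2% of all genes, and 2 lower (Pdcd1 and Tnfrsf4), near the 24.2% of all genes. The exact binomial test called 0 of them higher and the same 2 genes lower. The 16 genes of CD40 signalling to NF-kappaB had a median of 0.41. Of these, 3 were higher and 0 lower, near the background of 17.2%. The higher genes were Birc3, a ubiquitin ligase that NF-kappaB induces, with 1706 and 2921 reads and a change of 1.01 (0.92 to 1.10), the subunit gene Rel at 0.79, and Map3k14, the kinase of the noncanonical pathway, at 0.74. Traf1 stood at a change of -0.45 and Ikbkg by -0.43, and Relb, Nfkb2 and Rela by 0.45, 0.44 and 0.46. After equalising the T cell core genes, 11 of the 16 genes were higher, when 28.9% of all genes were.

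Of 18 other ligands, 15 passed the filter, 4 were at least 1.5-fold higher and 3 lower, against 17.2% and 24.2% of all genes, with a median of -0.009. Ceacam1, an adhesion receptor that also binds itself, had 2195 and 3604 reads and stood at a change of 0.95 (0.87 to 1.03). The butyrophilin-like gene Btnl2 had 21 and 80 reads and stood at a change of 2.11 (1.46 to 2.93), the B7 gene Cd276 had 14 and 37 reads and stood at a change of 1.57 (0.71 to 2.64), and the adhesion ligand Icam1 stood at a change of 0.63 (0.50 to 0.77). Vsir, which encodes the B7 relative VISTA and had the most reads of this list, had 6956 and 7943 reads and stood at a change of 0.42. Nectin2 had 73 and 30 reads and stood at a change of -1.03. Tnfsf15 had 17 and 0 reads and Btn2a2 had 8 and 0.

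Zeros of this kind were frequent, since 2332 genes had between 5 and 19 control reads and 1314 of these had 0 in the cKO library. Tnfsf8 and Tnfsf14 stood at a change of -0.17 and -0.12, under 1.5-fold. Cd70, Vtcn1 and Nectin3 had 0 reads in both libraries, which allows up to 3 reads, or a CPM (reads scaled to the library total) of 0.148 for the control and 0.164 for the cKO.

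**Figure D4:**
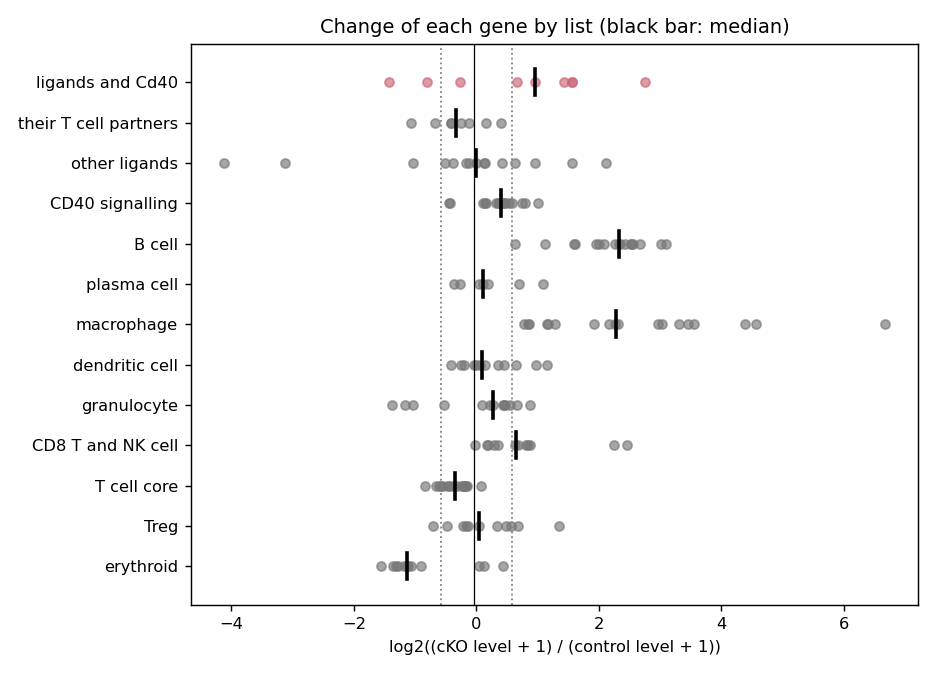
Log2 change of every gene past the filter (points), by list, with the median of each list as a black bar, the median of all genes as a thin line and the 1.5-fold limits dotted. The 17 B cell and 18 macrophage markers lie to the right, with medians of 2.33 and 2.28, and the dendritic cell markers around 0.098.

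Of the presenting cell lists, the B cell and macrophage markers were higher in the cKO library, while most dendritic cell markers stayed under 1.5-fold. All 17 B cell markers were at least 1.5-fold higher, with 14751 reads for the control and 54128 for the cKO and a summed level 4.31-fold higher. All 18 macrophage markers were higher, with 28813 and 53139 reads and a summed level 2.17-fold higher, and of these Marco and Timd4 had 0 reads in the control library. The 12 dendritic cell markers had 5937 and 5984 reads and a summed level 1.18-fold higher, with 3 higher and 0 lower. The 3 higher dendritic cell markers were Siglech at 1.16, Ccr9 at 0.98 and Itgax at 0.65. Xcr1 and Zbtb46, of the same list and under the threshold, stood at a change of 0.35 and -0.42. The T cell core genes had 77023 and 52677 reads, with 0 higher and 3 lower.

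Among the other lists, to be read against 17.2% of all genes higher and 24.2% lower, 2 of 7 plasma cell markers and 7 of 12 CD8 T and NK cell markers were higher and 0 of either lower. Of 11 Treg markers 2 were higher and 1 lower, a share of higher genes near the background. Of 13 granulocyte markers 2 were higher and 3 lower. The granulocyte markers had 262757 reads for the control and 303150 for the cKO, more than the T cell core genes in both libraries. Of 12 erythroid markers 0 were higher and 9 lower. The part of these markers in the values of the 9 genes was not tested.

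Set against the reads of each marker list within a library, the 9 genes took different positions. Cd40 had 4.14 reads per 1000 B cell marker reads (3.16 to 5.32) for the control and 6.58 for the cKO (5.91 to 7.30), a 1.59-fold higher ratio (1.21 to 2.12). It was the only one of the 9 genes whose ratio to the summed B cell marker reads was higher in the cKO library. This held without Pax5, the most abundant marker, when the log2 ratio of Cd40 was 0.79. The B cell markers' own changes ran from 0.63 for Pou2af1 to 3.10 for Pax5. Pax5 and Ebf1, at 3.01, changed more than Cd40 at 2.76. Pou2af1 supplied 3027 of the 14751 control reads of the list. Icosl had 58.8 and 40.1 reads per 1000 B cell marker reads, a log2 ratio of -0.55 (-0.67 to -0.44). The ratio of Cd86 was -0.55 (-0.81 to -0.28) and that of Cd80 -0.67 (-0.97 to -0.37) on the same log2 scale. Cd274 had 67.6 and 24.9 reads per 1000, a log2 ratio of -1.44 (-1.56 to -1.32), and Pdcd1lg2 lay at -1.15. The TNF family ligands were lowest, with Tnfsf9 at -2.38 (-2.91 to -1.86), Tnfsf4 at -3.01 (-4.89 to -1.37) and Tnfsf18 at -3.63 (-4.98 to -2.45). Few reads of these ligands underlie the ratios, with 11 and 5 for Tnfsf4.

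Against the macrophage markers, the log2 ratios were 1.66 for Cd40, 0.44 for Cd86, 0.44 for Icosl and 0.32 for Cd80. Lyz2, the most abundant macrophage marker and also a granulocyte gene, weighed on these ratios. Without Lyz2 they were 1.05 for Cd40 (0.65 to 1.47), -0.17 for Cd86 (-0.43 to 0.10), -0.17 for Icosl (-0.29 to -0.05) and -0.29 for Cd80 (-0.59 to 0.01). Those of Cd86, Icosl and Cd80 changed sign, but the intervals of Cd86 and Cd80 include 0. The macrophage markers' own changes ran from 0.78 to 6.68, and Cd40 at 2.76 lay within this range. Cd274 was at -0.45 with Lyz2 and -1.06 without. The summed reads of the dendritic cell markers hardly differed. Against them Cd40 was at 2.53, Cd86 at 1.32, Icosl at 1.31, Cd80 at 1.19, Pdcd1lg2 at 0.71 and Cd274 at 0.42. Without Ccr7, the most abundant marker of that list, the sums were 3543 for the control and 4011 for the cKO. The ratios were then lower, at 2.37 for Cd40, 1.15 for Cd86, 1.14 for Icosl, 1.02 for Cd80, 0.54 for Pdcd1lg2 and 0.26 for Cd274. Against the T cell core genes Cd40 was at 3.09 (2.70 to 3.51) and Cd274 at 0.98 (0.86 to 1.10).

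**Figure D5:**
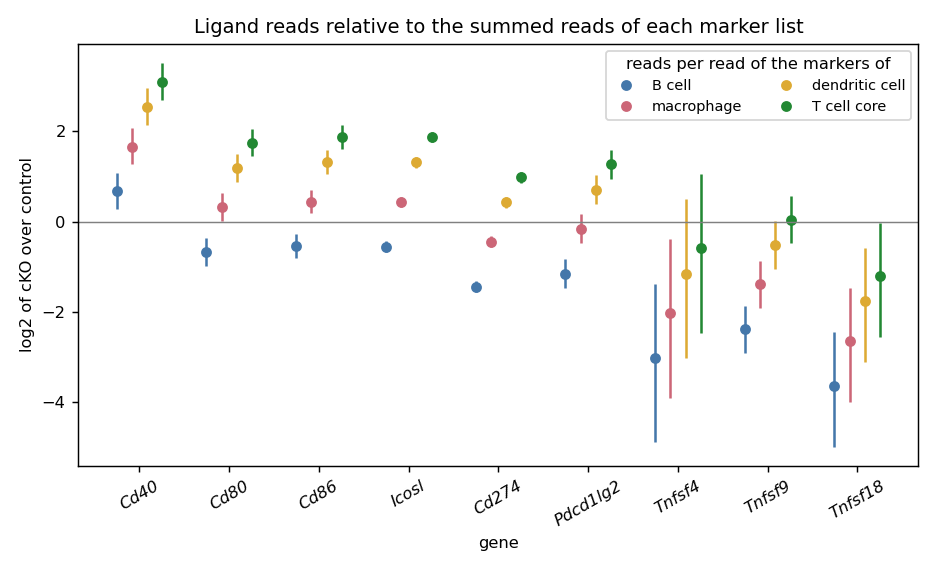
Log2 ratio, cKO over control, of the reads of each gene per read of the B cell, macrophage, dendritic cell and T cell core markers (points, with 95% counting intervals as lines). Cd40 lies above 0 for all 4 lists, whereas Cd80, Cd86 and Icosl lie below 0 for the B cell markers and above 0 for the others. Lyz2 was kept among the macrophage markers and Ccr7 among the dendritic cell markers. Each list is a sum of reads in which abundant markers weigh most.

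Genes next to the 9 genes were read from the annotation as a check on the region. Plgrkt, which ends 64 bases before Cd274, stood at a change of -0.017, while Ric1 after Pdcd1lg2 stood at a change of 0.39, so neither neighbour of the PD-1 ligand pair passed 1.5-fold. Adprh before Cd80 and Timmdc1 after it stood at a change of 0.28 and -0.41. Ncoa5 before Cd40 stood at a change of -0.17. Dnmt3l before Icosl had 12 and 18 reads and a change of 0.77, past 1.5-fold in the same direction as Icosl. Prdx6 before Tnfsf4 and Tubb4a before Tnfsf9 stood at -0.33 and 0.07, and Cd70 after Tnfsf9 had 0 reads in both libraries. The neighbours of Cd86 had fewer reads, with Casr at 38 and 15 reads and a change of -1.06, and Ildr1 at 75 and 146 reads and a change of 1.18. Fasl, which follows Tnfsf18 after 275398 bases and encodes the ligand of the death receptor FAS, had 188 and 315 reads and stood at a change of 0.97.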

How the data were processed

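RNA-seq was compared between 1 control and 1 cKO library of splenic Treg cells. According to the methods, the authors aligned reads to mm10 with TopHat; the submitters' processing notes list STAR, StringTie, DESeq2 and bcl2fastq 2.0, and the annotation and counting were not given in the sources used here. The deposited values are a signal, read counts divided by 1 factor per library, and dividing each by the smallest value above 0 gave whole reads. A change used a pseudocount of 1, a minimum mean level of 1 and a threshold of 1.5-fold, the fold given in the methods. Intervals are exact (Clopper-Pearson, or conditional for a ratio of ratios) at 95%. The added count tests on genes with at least 10 reads were a binomial test against TMM-scaled totals (adjusted p under 0.1 and at least 1.5-fold) and edgeR's exact test, in which a coefficient of variation of 0.2 or 0.4 was assumed. Lengths and coordinates came from GENCODE vM21 on GRCm38 (the build called mm10) and promoters from RefSeq. Of the marker lists, Folr4 and Ahsp had no row in the tables. Named genes are the 9 genes, the lists, Mettl14, Foxp3, adjacent protein-coding genes and the 3 genes nearest in level to Cd40, Cd80 and Cd86. The 9 genes and the lists were chosen with earlier results of these data known. Alternatives were other pseudocounts, filters, scalings (total reads, TMM, DESeq2 median of ratios, T cell core genes), fold thresholds and lengths. The binomial calls and the counting interval of the read ratio were tested on simulated counts without a spread between animals, and the other steps were not. Software was Python 3.11.15, numpy 2.4.6, scipy 1.17.1, pandas 2.3.3, matplotlib 3.10.9, R 4.3.3, edgeR 4.0.16 and DESeq2 1.42.0.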

Additional observations from a re-analysis of the deposited data

How the results depend on the processing

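No paired analysis was possible because there was 1 library per genotype, and no replicate could be left out. The 6 higher genes numbered 4 to 6 under the other settings, except that edgeR's exact test with a coefficient of variation of 0.4 left 1. The number of lower genes among the 9 was 1 with a pseudocount of 5, a minimum mean of 10, equalised T cell core genes, a threshold of 2-fold or the binomial test, and 0 with edgeR's exact test at 0.2 or 0.4. Over all genes, 4812 were higher after equalising the T cell core genes, 1722 at 2-fold, and 931 and 229 with edgeR's exact test at 0.2 and 0.4. The lower genes numbered 2035 with a minimum mean of 10, 1904 with genes above 0 in both libraries, 2617 with the binomial test added, and 1488 and 569 with edgeR's exact test. Fewer lower genes under both filters follow from the genes they leave out, and the cause was not tested otherwise. Equalising the T cell core genes gave medians of 0.27 for all genes, -0.019 for the receptors, 0.31 for other ligands, 0.72 for CD40 signalling, 2.64 for B cell, 2.59 for macrophage, 0.41 for dendritic cell and -0.039 for T cell core genes. Scaling by total reads moved the T cell core median to -0.444. No change of sign occurred among the 8 genes past 1.5-fold. Depth limits Tnfsf4, Tnfsf9 and Tnfsf18 most, since each had under 100 reads.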

Other observations

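The genes whose levels in both libraries lay nearest to those of Cd40, by distance in the plane of the log2 levels, were Ell3 with 57 and 374 reads, C1qa with 53 and 376 and Gm6377 with 56 and 310. C1qa encodes a complement chain made by macrophages and is also in the macrophage list. The nearest to Cd80 were Slc25a53, Pltp and Jup, with 133 and 311, 138 and 314, and 126 and 298 reads. The nearest to Cd86 were Arhgef37, Treml4 and Abca9, with 166 and 436, 165 and 401, and 158 and 429 reads. Likeness over 2 libraries is a description of levels and says nothing of shared control.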
